A study of Bos taurus with 9 samples.

Results

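Hatched bovine blastocysts of the Cryotop group were compared with hatched blastocysts of the control group, CTR, by RNA sequencing of polyadenylated RNA. The comparison takes 6 of the series' 9 libraries, 3 labelled Cryotop and 3 labelled CTR, and covers all genes in the count table. The other 3 libraries, labelled Nanuq, entered the fit only to share its estimate of the spread and are given as side values. The members were chosen by their treatment label and not by any measured value. One library stands for 5 to 10 pooled embryos, all of which had hatched by 24 h after thaw, and the design gives this for all 3 groups, the control included. Of the cooling groups in the design, a standard and an ultrafast one, it is not stated which is Cryotop. Breed, embryo age and embryo origin were not given in the sources used here. It is also unknown whether pools of 1 group were produced separately, and the p-values measure only the spread between pools, part of which may be technical.

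A blastocyst is the embryo stage with a fluid-filled cavity, an outer trophectoderm that will form placenta, and an inner cell mass that will form the fetus and yolk sac. It hatches when it leaves the zona pellucida, the glycoprotein shell around it. In vitrification the embryo is held in cryoprotectants and cooled so fast that water turns to a glass without forming ice. The Cryotop is a thin strip on which embryos sit in a minimal drop of solution that is plunged directly into liquid nitrogen. The series concerns how vitrification bears on embryos after warming, and all embryos measured here had hatched.

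Genes in the table carry Ensembl identifiers only, and 0 of 27607 could be paired with a symbol. The blastocyst label was therefore not checked against marker genes, other cell types were not looked for, and no function is stated for any gene below. In pooled embryos, fewer cells of a type and less RNA per cell cannot be told apart.

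Total counts were 19490838 to 25745731 in CTR and 20253721 and 16343398 in Cryotop replicates 2 and 3. Cryotop replicate 1 was the shallow library, at 3970666 counts. The scaling factors from the trimmed mean of M-values (TMM) stayed between 0.969 and 1.03 in the 6 libraries. Of the genes in the table, 14005 had enough counts to test, and these held 99.9% of all counts. They were placed in abundance classes by their mean over the 9 libraries in CPM, a count scaled so that libraries of different depth can be set side by side: 4031 genes at 50 CPM or more, 5821 at 5 to 50 CPM and 4153 under 5 CPM. Precision followed depth. A count of 0, read as an upper limit of 3 counts, allows a level of up to 0.756 CPM in the first Cryotop pool, against 0.117 to 0.154 CPM in CTR and 0.148 and 0.184 CPM in Cryotop replicates 2 and 3. These limits use unscaled totals and cover counting error only.

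Cryotop replicates 1 and 3 lacked low-abundance transcripts that the other pools held, and Cryotop replicate 2 did not. With every library reduced to 3970666 counts, the expected number of tested genes under 5 CPM with at least 1 count was 3088, 3676 and 3244 in CTR replicates 1, 2 and 3. It was 2026, 3607 and 2258 in Cryotop replicates 1, 2 and 3. The groups overlapped in this class, because Cryotop replicate 2 lay inside the range of CTR. At 5 to 50 CPM the numbers were 5816 to 5821 in CTR and 5727, 5820 and 5762 in Cryotop. All 4031 genes at 50 CPM or more were expected to be detected in every library at this depth.

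Over all genes of the table, 13577, 15002 and 13788 were detected at equal depth in CTR replicates 1, 2 and 3, and 12104, 14664 and 12409 in Cryotop replicates 1, 2 and 3. The means were 14122 ± 769 in CTR and 13059 ± 1398 in Cryotop (SD, n = 3 each), a difference of -1063 genes in Cryotop. It was -624 without CTR replicate 2, and -367 when detection required at least 5 counts. For the difference of -1063 genes an exact two-sided permutation test gave p = 0.3, where 3 libraries against 3 cannot go below 0.1. Without Cryotop replicate 1, the mean in Cryotop was 13537 and the difference from CTR was -586 genes. Without Cryotop replicate 2 the difference was -1866 genes, a description of the 2 low pools with no test.

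**Figure D1:**
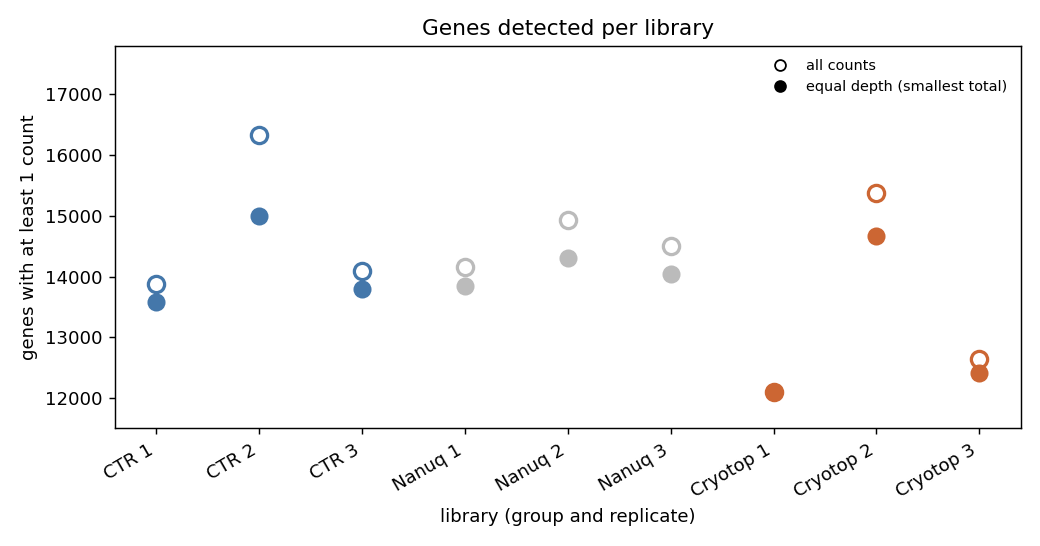
Genes with at least 1 count (vertical axis) in each library (horizontal axis), with all counts (open points) and at the smallest library's total of 3970666 counts (filled points). Cryotop replicates 1 and 3 stay below all other libraries at equal depth, at 12104 and 12409 genes, and Cryotop replicate 2 lies within the range of CTR.

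Some moderately expressed genes were also missing from the 2 low pools. Among genes with a mean of 5 CPM or more in the other 5 libraries compared, 132 had a count of 0 in Cryotop replicate 1 (1.34% of 9863) and 74 in Cryotop replicate 3 (0.747% of 9905). The same count was 1 gene in Cryotop replicate 2, and 5, 0 and 3 genes in CTR replicates 1, 2 and 3. At equal depth the expected numbers were 132 in Cryotop replicate 1, 89.0 in Cryotop replicate 3 and at most 6.19 in any of the other 4 libraries. To count genes missing from both low pools, the mean was taken over the other 4 libraries only, an alternative added after the data had been seen. Of 9908 genes at 5 CPM or more by that mean, 134 then had a count of 0 in Cryotop replicate 1, 71 in Cryotop replicate 3 and 9 in both, which is 6.72% of the first set and 12.7% of the second.

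Cryotop replicate 2 was as close to the CTR pools as these were to each other, and Cryotop replicates 1 and 3 were farther from CTR. For genes at 5 to 50 CPM at equal depth, the median absolute log2 difference in level between a pair of libraries was 0.37 to 0.38 within CTR and 0.34 to 0.36 between Cryotop replicate 2 and CTR. It was 0.52 to 0.54 between Cryotop replicate 1 and CTR and 0.47 to 0.50 between Cryotop replicate 3 and CTR. In this class Cryotop replicates 1 and 3 differed from one another by a median of 0.61, more than either differed from any CTR library. In that class 29.3% of genes were at least 2-fold apart between Cryotop replicates 1 and 3, against 9.65% to 11.4% between CTR libraries. With the shallow library set aside, Cryotop replicates 2 and 3 differed by a median of 0.44. Among genes at 50 CPM or more, the medians were 0.17 to 0.26 within CTR, 0.17 to 0.27 for Cryotop replicate 2 with CTR, 0.25 to 0.30 for Cryotop replicate 1 with CTR and 0.22 to 0.34 for Cryotop replicate 3 with CTR. There Cryotop replicates 1 and 3 differed from one another by 0.29, less than either differed from CTR replicate 2 (0.30 and 0.34). That was more than either differed from CTR replicate 1 (0.25 for both) or CTR replicate 3 (0.25 and 0.22). These are descriptions over genes, which are not independent replicates.

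Both low pools had more genes below the CTR range than above it, and Cryotop replicate 2 had about as many on either side. At equal depth, 34.9% of the tested genes lay below all 3 CTR libraries in Cryotop replicate 1 and 27.2% lay above them. Cryotop replicate 3 had 33.4% below and 27.2% above, and replicate 2 had 21.7% below and 24.3% above. The Nanuq pools had 23.1% to 25% below and 23.3% to 26.2% above. The excess below CTR was not limited to scarce transcripts, but at 50 CPM or more it was small in Cryotop replicate 3. At 50 CPM or more, 33.9% of genes were below CTR and 24.2% above in Cryotop replicate 1, against 21.6% and 26.4% in Cryotop replicate 2 and 31.8% and 29.3% in Cryotop replicate 3.

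**Figure D2:**
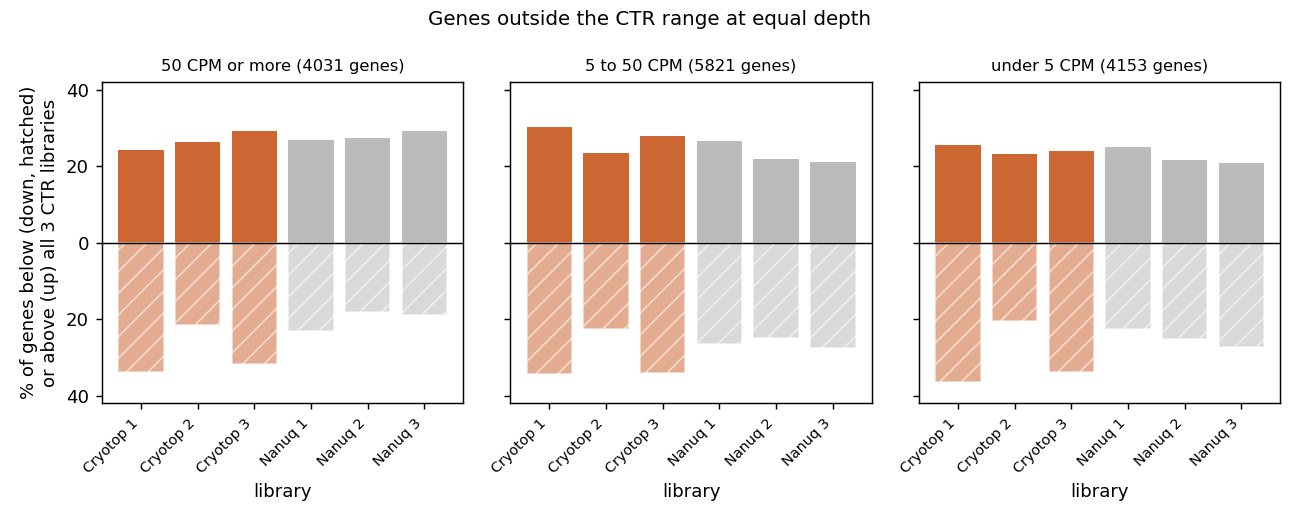
Share of tested genes (vertical axis, percent) above (upward bars) or below (downward hatched bars) all 3 CTR libraries at equal depth, for each Cryotop and Nanuq library and for the abundance classes. Cryotop replicates 1 and 3 have the longest downward bars in each class, at 31.8% to 36.5%.

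The spread between pools was larger in Cryotop than in CTR in each class. At equal depth the median SD of log2 CPM over the 3 libraries of a group was 0.20 in CTR and 0.21 in Cryotop at 50 CPM or more. At 5 to 50 CPM it was 0.33 in CTR and 0.44 in Cryotop, and under 5 CPM it was 0.78 and 1.11. In Nanuq the values were 0.15, 0.30 and 0.74. No test was made of these medians.

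The gene with the largest share of counts in Cryotop replicate 1 held a much smaller share in every other library. ENSBTAG00000052217 held 4.56% of the counts of Cryotop replicate 1, against 0.01% and 0.04% in Cryotop replicates 2 and 3. It held 0.0562%, 0.0387% and 0.381% in CTR replicates 1, 2 and 3. In Nanuq replicates 1, 2 and 3 it held 0.0740%, 0.0864% and 0.0232%. The group difference for this gene was a log2 fold change of 3.30 ± 2.26 (SE) with all libraries, and -2.66 without Cryotop replicate 1, so 1 pool set its direction. It did not pass in edgeR (quasi-likelihood, Benjamini-Hochberg adjusted p = 0.838).

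With all libraries, no gene passed edgeR's test between Cryotop and CTR as set up here. edgeR's quasi-likelihood test called 0 of 14005 genes (0%) at an adjusted p under 0.05, and the smallest adjusted p was 0.434. limma voom also called 0, whereas DESeq2 called 52 and edgeR without a filter on low counts called 58. Before adjustment, 1037 genes (7.40%) had a p under 0.05, of which 391 (2.79%) were higher and 646 (4.61%) lower in Cryotop. By class, 178 genes were higher and 293 lower at 50 CPM or more, 185 and 263 at 5 to 50 CPM, and 28 and 90 under 5 CPM. The median log2 fold change over all tested genes was -0.03. The median absolute log2 fold change was 0.16 at 50 CPM or more and 0.27 at 5 to 50 CPM. With edgeR fitted to the 6 libraries of CTR and Cryotop alone, 0 of 13179 genes were called and the smallest adjusted p was 0.873. In that fit 748 genes had an unadjusted p under 0.05, 279 higher and 469 lower.

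**Figure D3:**
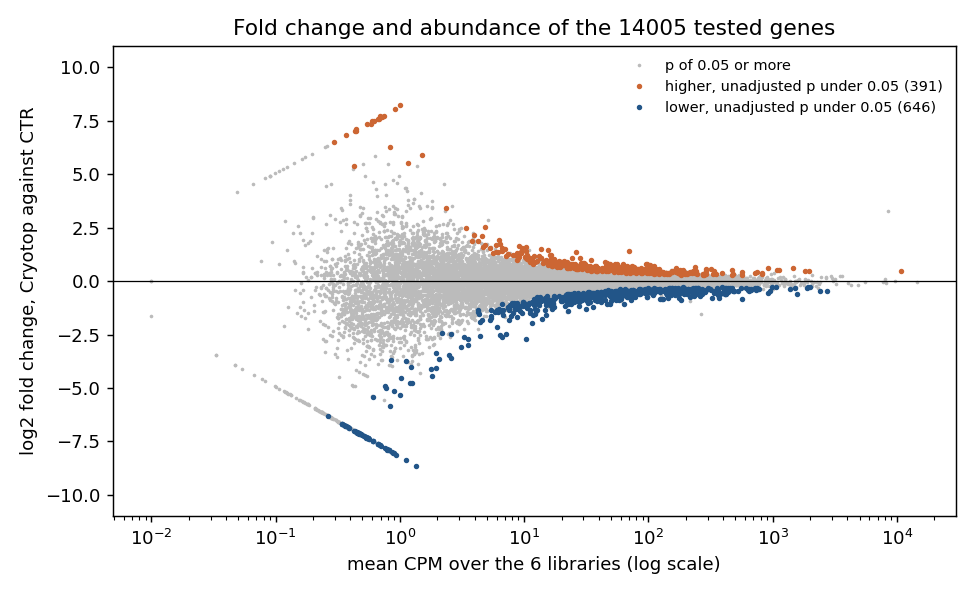
Log2 fold change of Cryotop against CTR (vertical axis) by mean CPM over the 6 libraries (horizontal axis, log scale), 1 point per tested gene, with genes at an unadjusted p under 0.05 in colour. The 391 higher and 646 lower genes lie at the edges of a cloud that narrows with abundance, and 0 genes passed after adjustment by edgeR.

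Genes that leaned lower in Cryotop were below CTR in replicates 1 and 3 alone more often than in either other pair. Of the 646 lower genes at an unadjusted p under 0.05, 470 were below all CTR libraries in all 3 Cryotop pools. Another 92 were below CTR in Cryotop replicates 1 and 3 but not in replicate 2, while 26 were below in replicates 1 and 2 only and 19 in replicates 2 and 3 only. Of the 391 higher genes, 284 were above CTR in all 3 pools, 46 in replicates 1 and 3 only, 15 in replicates 1 and 2 only, and 41 in replicates 2 and 3 only. These counts describe genes chosen by the same contrast, and the pair patterns were not tallied over all tested genes. Below CTR at equal depth were 34.9%, 21.7% and 33.4% of all tested genes in Cryotop replicates 1, 2 and 3. The excess of lower genes also depended on CTR replicate 2. Without that library 359 genes were higher and 421 lower, so 54% were lower, against 62.3% with all libraries. Over all tested genes, groups did not overlap for 11.9%, 4.83% with Cryotop higher and 7.08% with Cryotop lower.

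Under 5 CPM, 60 of the 90 lower genes had counts of 0 in all 3 Cryotop pools, and 16 of the 28 higher genes had counts of 0 in all 3 CTR pools. Their fitted fold changes depend on the prior count and are not given. In all 5 draws at equal depth, 11 of the 90 and 2 of the 28 were tested and under 0.05 in the same direction. Zero counts over all tested genes of this class were not tallied. The 60 and 16 are among genes chosen by p in the same contrast, so they only describe that choice.

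The genes with the widest gap between the groups were taken from the 9705 genes that averaged 5 CPM or more and had a count in each of the 6 libraries. They were chosen for that gap, so their separation is a description and supports nothing further. The widest gap upward belonged to ENSBTAG00000000697, which measured 4.62, 4.98 and 5.32 CPM in CTR replicates 1, 2 and 3 and 13.2, 11.3 and 12.8 CPM in Cryotop replicates 1, 2 and 3. The Cryotop pools lay close together and all above CTR, at 12.5 ± 1.03 CPM against 4.97 ± 0.351 CPM (SD, n = 3 each). Its log2 fold change was 1.32 ± 0.445 (SE), with an adjusted p of 0.550 by edgeR. The Nanuq pools measured 5.91 to 6.35 CPM, between the 2 groups.

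ENSBTAG00000004564 measured 2.61, 2.73 and 3.58 CPM in CTR and 13, 6.80 and 9.96 CPM in Cryotop replicates 1, 2 and 3. The lowest Cryotop pool was still above the highest CTR pool, but the Cryotop pools ranged widely, at 9.92 ± 3.10 CPM (SD, n = 3). The log2 fold change was 1.73 ± 0.644 (SE), with an adjusted p of 0.588 by edgeR, and in Nanuq the gene measured 3.32 ± 1.8 CPM (SD, n = 3). With CTR at 2.97 ± 0.528 CPM (SD, n = 3), the gene reached the minimum mean of 5 CPM only through its level in Cryotop.

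Downward, the widest gap was that of ENSBTAG00000013819, at 17.1, 20.6 and 16.9 CPM in CTR and 5.75, 7.69 and 6.84 CPM in Cryotop replicates 1, 2 and 3. All 3 Cryotop pools, the deep replicate 2 among them, lay below CTR, and the Nanuq pools overlapped with CTR at 15.6 ± 2.71 CPM (SD, n = 3). The log2 fold change was -1.42 ± 0.343 (SE), with an adjusted p of 0.434 by edgeR. ENSBTAG00000009965 measured 12.8, 20.5 and 19.9 CPM in CTR and 4.50, 6.41 and 6.72 CPM in Cryotop. Its log2 fold change was -1.57 ± 0.388 (SE), with the same adjusted p of 0.434 by edgeR, and Nanuq measured 14.2 ± 4.59 CPM (SD, n = 3).

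In Cryotop replicate 1 these levels rested on 53, 52, 23 and 18 counts in that order. The exact Poisson 95% intervals of the 4 levels there were 9.92 to 17.3, 9.70 to 17.0, 3.64 to 8.62 and 2.67 to 7.11 CPM, covering counting error only. Each interval stayed outside the range of the CTR libraries for its gene. Without Cryotop replicate 1 the log2 fold changes were 1.28, 1.49, -1.33 and -1.43, and at equal depth their medians over 5 draws were 1.34, 1.66, -1.40 and -1.55. None of the 4 passed by edgeR in either setting, and their direction was fixed by the way they were chosen.

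**Figure D4:**
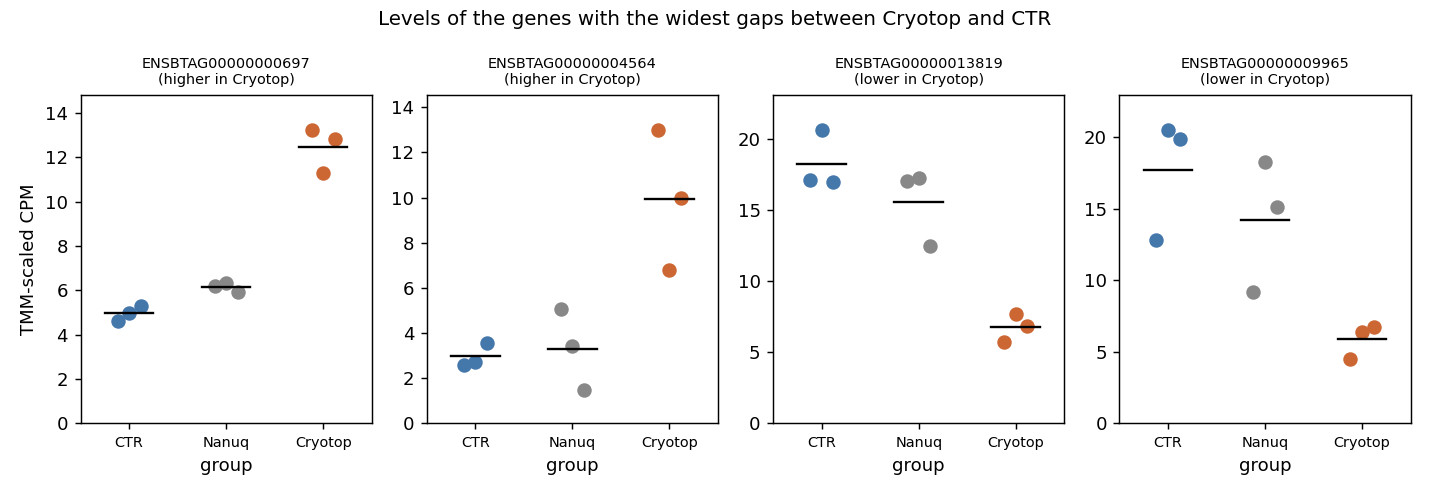
TMM-scaled CPM (vertical axis) of the 4 genes in each library of CTR, Nanuq and Cryotop (horizontal axis), 1 point per library with the group mean as a line. The Cryotop points lie above all CTR points for the first 2 genes and below them for the last 2, and the genes were chosen for that gap.

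DESeq2, run on the whole table, called 52 of the 9190 genes to which it gave an adjusted p (0.566%), 23 higher and 29 lower in Cryotop. All 52 had groups that did not overlap in that direction and an unadjusted p under 0.05 by edgeR. Over all genes tested by edgeR the shares, in either direction, were 11.9% and 7.40%. The same libraries and contrast chose the 52, so this describes them and is no separate support. Of the named genes, ENSBTAG00000000697, ENSBTAG00000013819 and ENSBTAG00000009965 were among the 52, with DESeq2 adjusted p-values of 0.0448, 0.0256 and 0.0370, and ENSBTAG00000004564 was given none. At 50 CPM or more were 17 of the higher and 21 of the lower genes, and the other 6 and 8 were at 5 to 50 CPM. Their median log2 fold change was 0.69 for the higher genes and -0.75 for the lower genes.

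At equal depth the outcome by edgeR was the same. Each library was thinned to 3970666 counts in 5 random draws, which left a median of 11619 genes to test, and edgeR called 0 in each draw, with a smallest adjusted p of 0.249 to 0.412. Genes at an unadjusted p under 0.05 numbered 926 to 954, with 341 to 432 higher and 510 to 613 lower. Of the 391 higher and 646 lower genes of the full data, 176 and 300 were under 0.05 in the same direction in all 5 draws. Most of those were abundant, at 116 of the 176 and 188 of the 300 at 50 CPM or more. DESeq2 called 33 to 41 genes per draw, out of 1380 to 4439 to which it gave an adjusted p (0.879% to 2.75%). Of its 52, 7 higher and 8 lower genes were called in all 5 draws, and 6 higher and 10 lower genes in none.

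Without Cryotop replicate 1, edgeR called 1 of 14766 genes. The same libraries gave 0 calls by limma voom (smallest adjusted p = 0.251) and 0 by edgeR fitted to CTR and Cryotop alone (smallest adjusted p = 0.123). ENSBTAG00000001858, named because it was that gene and so chosen after its values were seen, measured 21.2, 18.5 and 13.9 CPM in CTR. In Cryotop it measured 11.7 CPM in replicate 1 and 2.22 and 1.32 CPM in replicates 2 and 3. Its shallow library thus lay nearest to CTR. The log2 fold change was -3.32 without Cryotop replicate 1 (adjusted p = 0.00912 by edgeR) and -1.98 ± 0.612 (SE) with it (adjusted p = 0.534 by edgeR). Nanuq measured 16.3 ± 5.59 CPM (SD, n = 3).

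Leaving out Cryotop replicate 1 also changed the split of directions in edgeR. Before adjustment, 1099 genes had a p under 0.05, 487 higher and 612 lower. At 50 CPM or more the split went from 178 higher and 293 lower with that library to 250 higher and 255 lower without it. At 5 to 50 CPM 201 genes were higher and 283 lower. Of the 391 and 646 genes with all libraries, 255 higher and 373 lower were under 0.05 in the same direction. In DESeq2 the split moved the other way, from 616 higher and 748 lower genes at an unadjusted p under 0.05 to 556 and 833. DESeq2 called 29 genes, 10 higher and 19 lower, and 10 of its 52 genes were among them, 5 in each direction.

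Of the single libraries left out, Cryotop replicate 2 moved these counts most. The group then consisted of the 2 pools with fewer detected genes, and 1629 genes had an unadjusted p under 0.05, 473 higher and 1156 lower. edgeR called 8 of 14599 genes, all lower in Cryotop. Of these 8, 5 had counts of 0 in both remaining Cryotop pools, and all 8 had counts in Cryotop replicate 2. The 8 were chosen by a fit without that library, so this pattern only describes the choice. Among the 9908 genes at 5 CPM or more by the mean over the other 4 libraries, 9 had counts of 0 in both pools. With Cryotop replicates 1 and 3 both left out, edgeR called 0 genes and 478 had an unadjusted p under 0.05, with the lone Cryotop pool assumed to vary like the other groups.

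**Figure D5:**
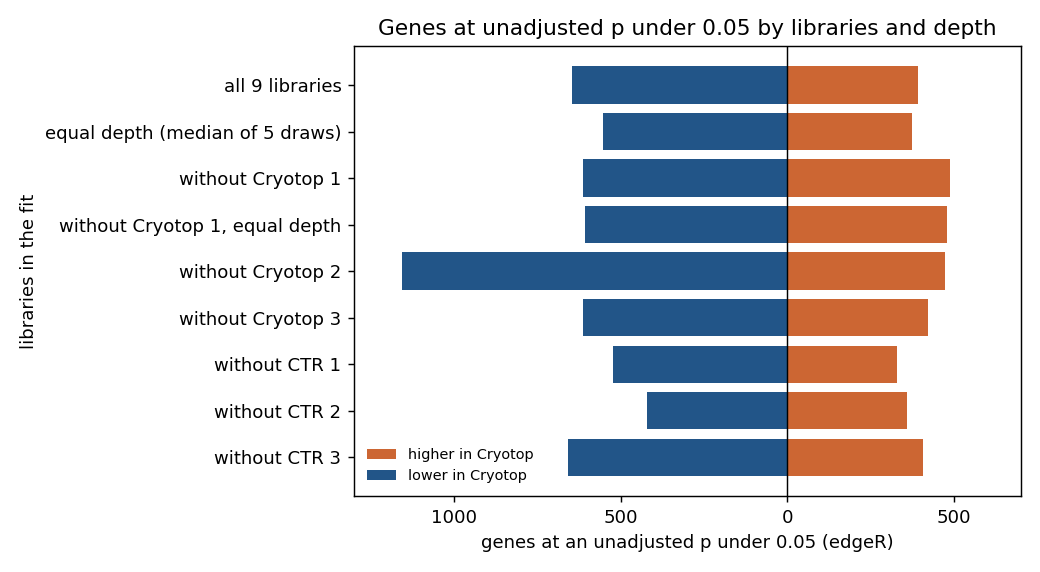
Genes at an unadjusted p under 0.05 by edgeR (horizontal axis), lower in Cryotop to the left and higher to the right, for fits of all libraries, at equal depth (median of 5 draws) and with libraries left out (vertical axis). The fit without Cryotop replicate 2 has the longest bar, 1156 lower genes, and the fit without CTR replicate 2 has 421.

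The precision of the fold changes rose with abundance. The intervals and standard errors here use the spread shared with Nanuq, the group with the smallest median SD in each class. They were not summarized for a fit of CTR and Cryotop alone. The 95% interval of the fold change lay within 2-fold in both directions for 96.4% of genes at 50 CPM or more and 49.5% at 5 to 50 CPM. Without Cryotop replicate 1 these shares were 95% and 48.4%. The typical standard error of a log2 fold change was 0.18 at 50 CPM or more and 0.33 at 5 to 50 CPM, and the same values without Cryotop replicate 1 were 0.19 and 0.33.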

How the data were processed

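Per the labels' protocols, RNA was isolated with PicoPure columns, library preparation used NEBNext Ultra II, and at least 10M reads were sequenced per library. Per the submitters' processing notes, reads were handled with Trim Galore 0.6.0 and FastQC, and STAR 2.7.0e, DESeq2 1.26.0 and the build ARS-UCD1.2 are also named. The counter, the gene annotation and whether strand was used were not given in the sources used here. Reads of antisense or overlapping genes and of near-identical copies may therefore be shared or lost. The authors deposited raw counts per Ensembl gene, not normalized. The gene table used here (37063 genes, ARS-UCD2.0) has 0 Ensembl entries, so 29 gene lists set up by symbol were not used.

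Genes passed edgeR's filterByExpr over the 9 libraries and were scaled by TMM. The test was edgeR's robust quasi-likelihood F test with Benjamini-Hochberg adjustment, called at an adjusted p under 0.05, with 6 residual degrees of freedom. Log2 CPM used a prior count of 2. Standard errors were the log2 fold change over the root of F. For equal depth, counts were drawn without replacement down to the smallest total. Software was edgeR 4.0.16, limma 3.58.1 and DESeq2 1.42.0 in R 4.3.3. The tests were also run on simulated data that gave all groups the same spread per gene, unlike the pools here. That run does not show how the tests behave on these data. Named genes were the 2 higher and 2 lower with the widest gap between the groups, and the leading gene of a library. ENSBTAG00000000836 led the other 8 libraries, at 1.35% to 1.60% of counts. The comparison, lists and naming rule were chosen with earlier results of these data known. No CTR or Cryotop library repeated another of its group: counts of each pair differed with a chi-square of 36.2 or more per degree of freedom, a check for duplicate deposits only.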

Additional observations from a re-analysis of the deposited data

How the results depend on the processing

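With all libraries, edgeR called 0 genes (1037 at an unadjusted p under 0.05). Without a filter on low counts it called 58, DESeq2 called 52 and limma voom called 0. Fitted to the CTR and Cryotop libraries alone, edgeR called 0, with 748 genes at an unadjusted p under 0.05. Leaving out each of the 9 libraries in turn gave 0 to 8 calls and 780 to 1629 genes at an unadjusted p under 0.05, the lowest without CTR replicate 2 and the highest without Cryotop replicate 2. Calls were 8 without Cryotop replicate 2, 1 without Cryotop replicate 1, 1 without CTR replicate 3 and 0 in the other 6 fits. Without Cryotop replicate 1 and with the other 8 libraries thinned, edgeR called 1. A minimum mean of 50 CPM left 466 of 4027 tested genes at an unadjusted p under 0.05. The count fell but the share did not. In the main fit the share was 11.7% at 50 CPM or more, 2.84% under 5 CPM and 7.40% over all tested genes. Leaving out Cryotop replicates 1 and 3 together left 478 genes at an unadjusted p under 0.05, with fewer samples. Without Cryotop replicate 1, where edgeR called 1, it called 54 without a filter, DESeq2 called 29, limma voom 0, and edgeR on the CTR and Cryotop libraries alone 0. At equal depth, where edgeR called 0, it called 45 without a filter and DESeq2 called 39 (medians over 5 draws). The cause of these differences was not tested. DESeq2's size factors changed no count of calls by edgeR. They moved the share of lower genes among those at an unadjusted p under 0.05 from 62.3% to 57.9%.

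The design states no pairing of replicates, so the main fit had no replicate block. Deviations from the group means correlated at 0.0147 to 0.0401 between same-numbered CTR and Cryotop libraries. These correlations run across all tested genes, those under 5 CPM included. Each Cryotop library correlated best with the CTR library of its number. Whether the numbers mark pairs was not tested. With a replicate block in the model, edgeR called 1 gene with all libraries, 5 without Cryotop replicate 1 and 1 at equal depth (median over draws, range 0 to 1). With all libraries that gene was ENSBTAG00000015792, named after its values were seen (adjusted p = 0.0160 with the block). Of the 4 genes with the widest gaps, 3 passed in 1 of the 22 alternatives run for each, DESeq2. Their direction was fixed by their choice. Their adjusted p ran up to 1 over the alternatives. Depth limits the genes under 5 CPM most.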
